A study of Rattus norvegicus with 60 samples.

Results

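The RNA of 6 aquaporins, the membrane channels for water and glycerol, and of the vasopressin V2 receptor was measured in rat kidney. The genes are Aqp1, Aqp2, Aqp3, Aqp4, Aqp7, Aqp11 and Avpr2. They were chosen by symbol, each symbol had 1 row in the table of 32545 genes, and all 7 passed the filter on low counts in both tissues. Kidney cortex and outer medulla were taken from wild-type rats of the Dahl salt-sensitive strain (SS) and from rats of the same strain with a knockout of NOX4 (NOX4), so the controls carried the salt-sensitive background too. The protein lost in the knockout, NADPH oxidase 4, produces hydrogen peroxide. Rats of each strain were kept under control conditions (LS) or fed a diet of 4.0% NaCl for 7 days (HS7) or 21 days (HS21), which gave 12 groups of 5 libraries and 60 libraries in all. The labels give no sex, age, salt content of the control diet, knockout allele or number of founder lines. Nothing in them says that the 5 libraries of a group came from 5 rats, so p-values measure only the spread between these libraries.

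Water leaves the tubule through aquaporins. Aqp1 carries water across both membranes of proximal tubule and descending thin limb cells. Aqp7 transports water and glycerol at the apical membrane of the last, straight segment of the proximal tubule (segment 3), and Aqp11 lies inside proximal tubule cells. Vasopressin binds the V2 receptor, a Gs-coupled receptor of the collecting duct, and raises cyclic AMP. Protein kinase A then brings Aqp2 to the apical membrane of principal cells and raises transcription of its gene. Aqp3 and Aqp4 form the basolateral exit of the same cells.

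In the deposited annotation, whose build is not given in the sources used here, Aqp1 (ENSRNOG00000011648) spans chr4:85551502-85569360 on the plus strand. Aqp2 (ENSRNOG00000054378) spans chr7:141237768-141245165 on the plus strand. Aqp3 (ENSRNOG00000009797) and Aqp7 (ENSRNOG00000009686) are neighbours on the minus strand of chromosome 5, at chr5:57423734-57429245 and chr5:57358327-57372239, with 51494 bases and 1 other gene between them. Aqp4 (ENSRNOG00000016043) is at chr18:6765945-6782996, Aqp11 (ENSRNOG00000013358) at chr1:162703442-162713610 and Avpr2 (ENSRNOG00000059862) at chrX:156889410-156891213, all 3 on the minus strand.

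RefSeq promoter windows of the GRCr8 assembly were matched for 6 of the 7 genes and hold 300 bases each, most of them before the start site. The windows of Aqp2 and Aqp3 are printed because these were the genes whose level differed between strains in the cortex at both salt times. The motifs searched on both strands were the core CGTCA of the cyclic AMP response element and its full form TGACGTCA, the GATA motif GATAA, the AP-1 motif TGANTCA and the TATA box TATAAA. Capitals mark matches to the core cyclic AMP, GATA and TATA motifs on either strand, and positions count from the start site as 0.
Aqp2, chr7:132590036-132590335, plus strand: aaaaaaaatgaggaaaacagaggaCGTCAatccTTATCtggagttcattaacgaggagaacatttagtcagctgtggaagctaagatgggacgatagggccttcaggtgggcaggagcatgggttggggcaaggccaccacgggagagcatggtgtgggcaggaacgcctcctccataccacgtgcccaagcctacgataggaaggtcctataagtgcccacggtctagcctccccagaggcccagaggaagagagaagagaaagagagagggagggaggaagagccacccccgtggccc
Aqp3, chr5:61040634-61040933, minus strand: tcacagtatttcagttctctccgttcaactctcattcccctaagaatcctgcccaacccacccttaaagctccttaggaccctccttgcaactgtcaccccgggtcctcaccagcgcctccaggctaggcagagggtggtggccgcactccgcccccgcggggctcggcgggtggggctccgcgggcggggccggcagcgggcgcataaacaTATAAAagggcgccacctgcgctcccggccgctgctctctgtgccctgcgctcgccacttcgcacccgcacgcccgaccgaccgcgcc
The Aqp2 window holds CGTCA at -226 and GATAA, read on the other strand, at -217. The Aqp3 window holds neither and has TATAAA at -38. Of all 33469 promoter windows, 21.2% hold CGTCA, 26.5% GATAA and 14.2% TATAAA. Among the other matched genes, Avpr2 had GATAA at -185 and TATAAA at -45 in a window read on the plus strand of GRCr8, while the deposited annotation has the gene on the minus strand of its own build. Aqp1 had TATAAA at -30, and the windows of Aqp4 (2 start sites) and Aqp11 held none of the 5 motifs. The full cyclic AMP site (1.83% of windows) and the AP-1 motif (7.33%) were found at none of these genes. A match of letters is not a measured binding site.

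Libraries held 11490491 to 29560916 counts. As CPM, counts scaled to the size of the library, cortical Nox4 lay at 251 to 530.5 (median 315) in SS and 54.7 to 77.8 (median 66.4) in NOX4, with no overlap. Medullary ranges overlapped, at 6.35 to 111 (median 11.1) in SS and 1.83 to 15.1 (median 4.6) in NOX4. Thick ascending limb markers summed to 1746 to 5277 CPM in cortex libraries and 5843 to 20900 in outer medulla libraries. In contrast, proximal segment 1 and 2 markers summed to 9647 to 15920 in the cortex and 177 to 9427 in the outer medulla. CPM were scaled within each tissue, and on that scale both marker sets sided with the tissue labels. Outer medulla library SS HS7 replicate 3, with the 9427, came nearest to the cortex range and had the highest Nox4 of its tissue. A group of 11 SS libraries (5 from cortex, 6 from outer medulla, at LS and HS7) detected fewer genes when all were thinned to one depth, 14083 to 16118 against 16909 to 18363 in the other 49, and are called low-complexity libraries here. Cortex libraries NOX4 HS7 replicates 3 and 4 carry names outside the numbering of the others. In that numbering the SS libraries come first and the NOX4 libraries after them, so strain and library order cannot be told apart.

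Per unit of length, in the authors' FPKM, Aqp1 was the most abundant of the 7 genes in both tissues, with a median of 603 in the cortex and 696 in the outer medulla. In the cortex it was followed by Aqp7 (95.5), Aqp2 (65.1), Aqp3 (60.5), Aqp11 (39.7), Avpr2 (13.4) and Aqp4 (1.33). Aqp2 stood below Aqp7 and above Aqp3 in 23 of 30 libraries each, so these neighbours were not cleanly ordered, whereas each of the other cortex neighbours kept its place in at least 29 of 30. Aqp2 came second in the outer medulla (269), then Aqp3 (143) and Avpr2 (36.5). The last 4 places there, Avpr2, Aqp7 (34.8), Aqp4 (16.5) and Aqp11 (9.67), were close, since each of the first 3 was above the next in 17, 21 and 20 of 30 libraries. Below Aqp1, the medullary order thus opened with the principal cell channels Aqp2 and Aqp3, where the cortical order opened with Aqp7.

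**Figure D1:**
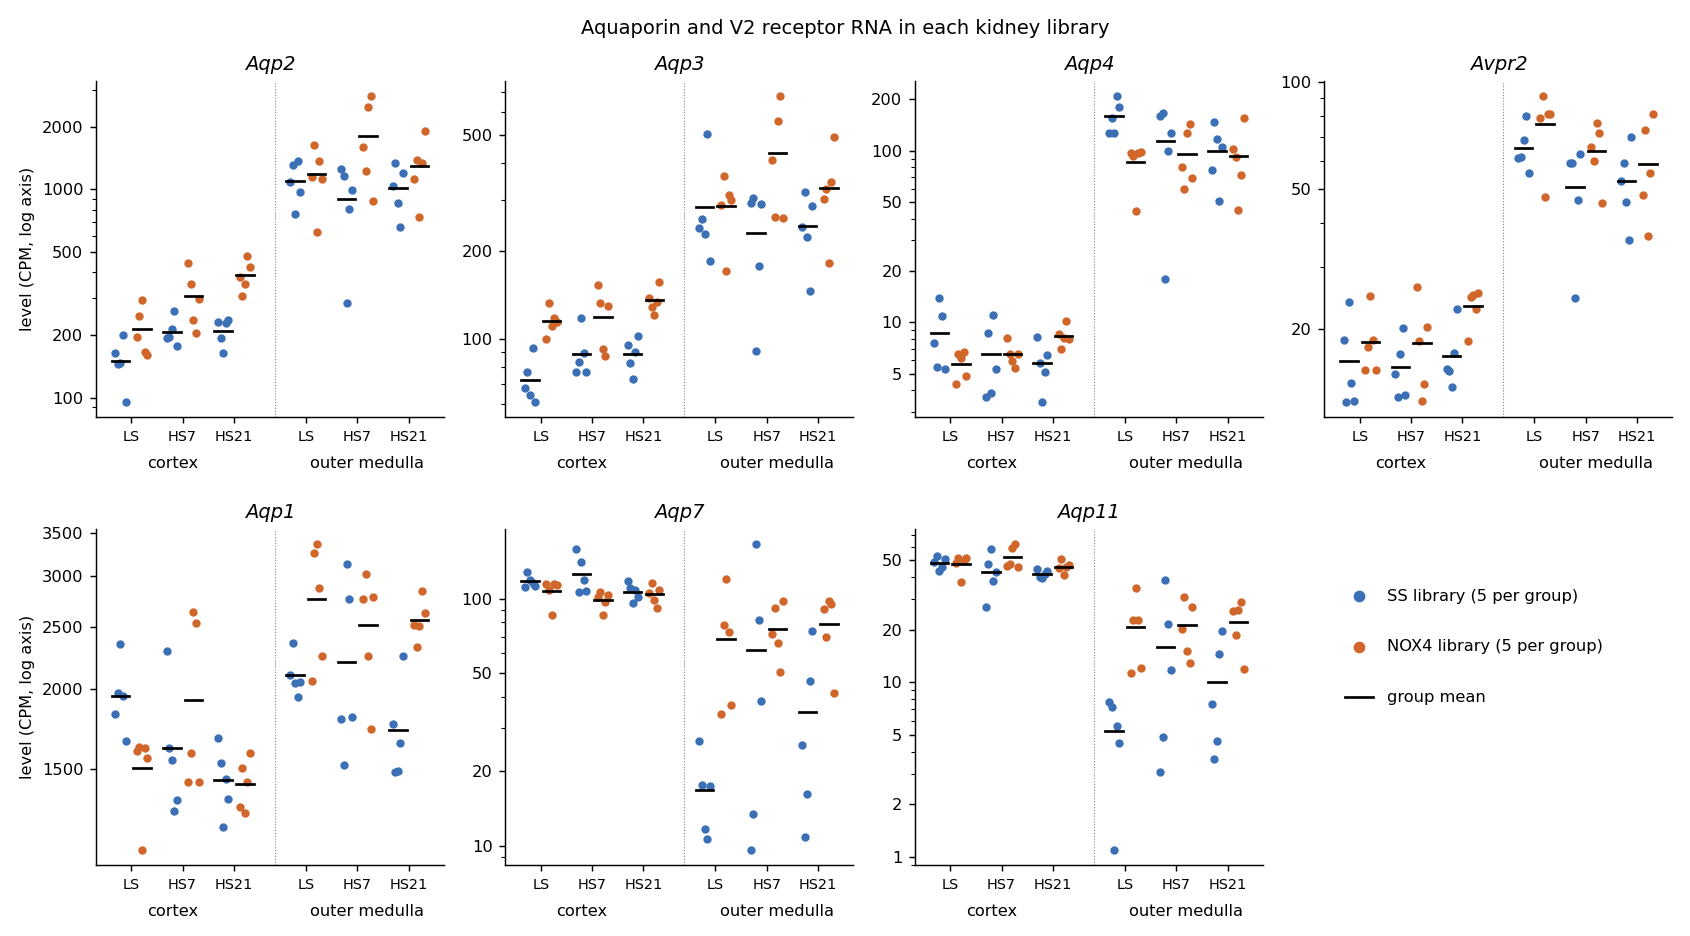
RNA level of each gene in every library, as CPM on a log axis, by tissue and diet. Each point is 1 library (SS blue, NOX4 orange, 5 per group) and bars are group means; in the outer medulla at LS the 5 NOX4 points of Aqp7 lie between 34.1 and 120, above the 5 SS points between 10.7 and 26.7.

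Between tissues, the collecting duct genes were higher in the outer medulla and Aqp7 and Aqp11 of the proximal tubule in the cortex. A log2 fold change in what follows comes from edgeR's quasi-likelihood test on counts, is given with its standard error, and was called at a Benjamini-Hochberg adjusted p under 0.05 over all genes tested. Averaged over the 6 strain and diet groups, 6 of 7 genes were called, where 71.6% of all genes tested were. In cortex and outer medulla, Aqp4 lay at 3.42 to 13.8 and 17.8 to 208 CPM (30 libraries each). These CPM were scaled within each tissue, unlike the fit over all 60 libraries. They are therefore not on one scale between tissues, and overlap between tissues was not judged from them. In the fit Aqp4 was 12.2-fold higher in the outer medulla (3.60 ± 0.15, adjusted p = 1.13e-27). Aqp2 had a median of 220.5 CPM in the cortex and 1153 in the outer medulla, where SS HS7 replicate 3 was lowest at 286. Its fitted difference was 1.98 ± 0.12 (adjusted p = 1.35e-21). Avpr2 (1.40 ± 0.09) and Aqp3 (1.18 ± 0.11) were higher in the outer medulla as well. Aqp11 (-2.06 ± 0.16) and Aqp7 (-1.50 ± 0.17) were lower there. Aqp1 did not pass (0.13 ± 0.07, adjusted p = 0.0957, 95% interval -0.01 to 0.28), though DESeq2 called it at 0.16 (adjusted p = 0.0371). Under control conditions, 6 of 7 were called in SS (53.7% of all genes) and 7 of 7 in NOX4 (38.1%).

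The values of Aqp7 and Aqp11 lay further apart between tissues in SS than in NOX4 rats under control conditions. In SS at LS, Aqp7 was 9.02-fold and Aqp11 11.9-fold lower in the outer medulla than in the cortex, and in NOX4 2.00-fold (adjusted p = 0.0458) and 2.93-fold. In these fits an omission took 1 replicate number out of all 12 groups. The NOX4 call of Aqp7 was lost when number 1, 2, 4 or 5 was left out (adjusted p 0.00625 to 0.184 over the 5 omissions). It was also lost with no filter on low counts, at -0.98 (adjusted p = 0.0651). For Aqp1 the tissue difference was 0.53 ± 0.18 in NOX4 (adjusted p = 0.0147) and -0.27 ± 0.18 in SS (adjusted p = 0.199). Its call in NOX4 was lost without replicate number 2 or 3 (adjusted p 0.0109 to 0.11 over the 5 omissions). The difference between strains in the tissue effect was tested over the 3 diets together, not at LS alone.

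**Figure D2:**
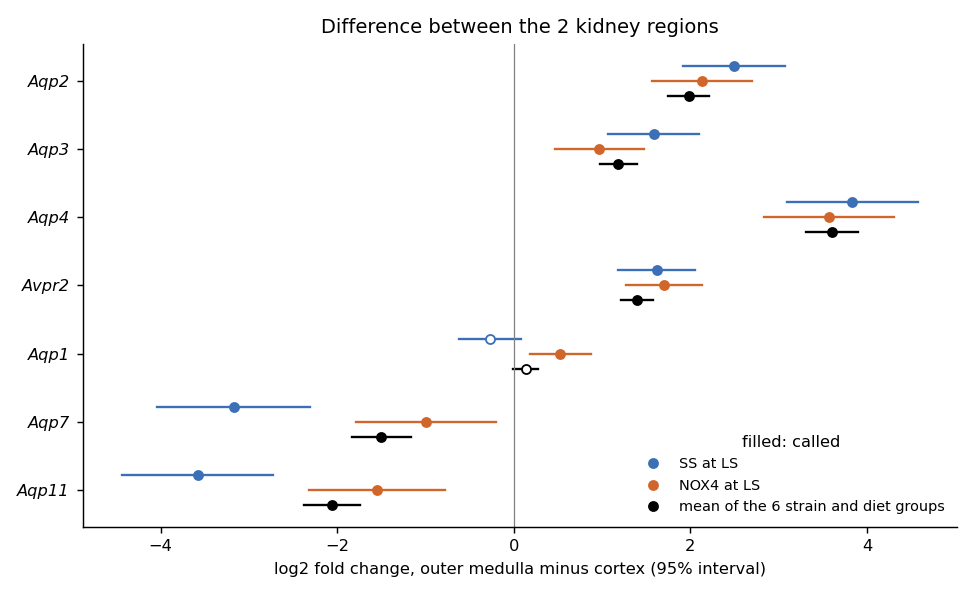
Log2 fold change of each gene, outer medulla minus cortex, with 95% intervals, for SS at LS, NOX4 at LS and the mean of the 6 groups. Filled symbols passed the test; Aqp4, Aqp2, Avpr2 and Aqp3 lie to the right of 0, and Aqp7 and Aqp11 to the left.

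In the cortex the collecting duct channels Aqp2 and Aqp3 were higher in NOX4 than in SS rats. Averaged over the 3 diets, 4 of 7 genes were called, where 31.7% of all genes tested were: Aqp2, Aqp3 and Avpr2 higher and Aqp7 lower. At LS 1 gene was called (22% of all genes), at HS7 3 (17.4%) and at HS21 2 (1%). In these bulk samples, fewer cells of a type and less RNA per cell cannot be told apart.

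Aqp2, the vasopressin-regulated water channel, was at 231, 193, 163, 228 and 236 CPM in the 5 SS cortex libraries at HS21. In the 5 NOX4 libraries it was at 378.5, 307, 352, 479 and 423.5. Every NOX4 library was above every SS library, a 1.85-fold difference (0.88 ± 0.19, adjusted p = 0.0165). At HS7 the SS values were 193, 196, 213, 259 and 177 and the NOX4 values 441, 351, 236, 205 and 298. The groups overlapped there, with NOX4 replicates 3 and 4 inside the SS range, and the difference was 0.56 ± 0.19 (adjusted p = 0.0412). At LS, SS libraries held 164.5, 146, 146, 200.0 and 95.4 and NOX4 libraries 197, 246, 293, 166 and 161, overlapping ranges whose difference of 0.50 ± 0.19 did not pass (adjusted p = 0.0594). The 2 called differences were sensitive to single libraries. At HS21 the call was lost without SS replicate 2 or 3 or NOX4 replicate 4 or 5 (adjusted p 0.0141 to 0.0754 over the 10 omissions), and at HS7 without SS replicate 1, 2 or 5 or NOX4 replicate 1, 2 or 5 (0.021 to 0.159). Conversely, at LS it was gained without SS replicate 4 or NOX4 replicate 4 or 5 (0.0258 to 0.207). The average over the diets stayed called at each of 30 omissions (adjusted p 2.63e-05 to 0.00015).

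Aqp3, the basolateral water and glycerol channel, separated the strains at LS. SS cortex libraries held 68, 77, 64.2, 92.7 and 60.8 CPM and NOX4 libraries 100.1, 133, 110.5, 118 and 114, with no overlap (0.67 ± 0.14, adjusted p = 0.00131). The same was seen at HS21, where SS held 95.5, 82.3, 72.5, 90.1 and 102 and NOX4 138, 129, 120.5, 134 and 157 (0.61 ± 0.14, adjusted p = 0.0235). At HS7 the values were 76.8, 83.6, 118, 89.4 and 76.8 in SS and 153, 132, 92.4, 87.3 and 129.8 in NOX4. These overlapped, again with NOX4 replicates 3 and 4 lowest in their group, and differed by 0.42 ± 0.14 (adjusted p = 0.0372). The LS call held at all 10 omissions (adjusted p 0.000779 to 0.00597). The HS21 call was lost without SS replicate 2, 3 or 4 or NOX4 replicate 1, 4 or 5 (0.0139 to 0.104), and the HS7 call without SS replicate 1, 2, 4 or 5 or NOX4 replicate 1, 2 or 5 (0.00618 to 0.132) and without the low-complexity libraries, at 0.36 (adjusted p = 0.115).

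Avpr2, the receptor that drives both channels, was much lower in level and moved less. Its cortex CPM was 12.5 to 23.9 (median 15.2) in SS and 12.5 to 26.3 (median 18.6) in NOX4 (15 libraries each). The ranges overlapped almost completely, and the average difference was 0.29 ± 0.11 (adjusted p = 0.0466). At HS21 SS libraries held 15.4, 15.2, 13.8, 17.1 and 22.8 and NOX4 libraries 18.6, 24.6, 25.1, 22.8 and 25.4, 0.47 ± 0.19 (adjusted p = 0.313), with 1 SS library inside the NOX4 range. The call on the average was lost in 20 of 30 omissions (adjusted p 0.0136 to 0.0954), those other than SS LS replicates 1 and 3, SS HS7 replicates 3 and 4, SS HS21 replicate 5, NOX4 LS replicates 1 and 5, NOX4 HS7 replicates 3 and 4 and NOX4 HS21 replicate 1. It was also lost with DESeq2's size factors, at 0.28 (adjusted p = 0.0594).

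Aqp4, the second basolateral channel, did not differ in the cortex on average (-0.02 ± 0.16, adjusted p = 0.942, 95% interval -0.33 to 0.29). It was scarce there, at 3.42 to 13.8 CPM. Its strain difference was -0.59 ± 0.28 at LS and 0.53 ± 0.27 at HS21, neither of which passed.

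Of the proximal tubule channels, Aqp7 was the one called in the cortex. At HS7 it was at 158, 106, 141, 118.5 and 107 CPM in SS and 101, 106, 85.7, 96.4 and 103 in NOX4. All 5 NOX4 libraries lay below the SS mean, though the groups overlapped at about 106 (-0.35 ± 0.10, adjusted p = 0.0125). That call was lost without SS HS7 replicate 1 (adjusted p 0.00663 to 0.0555 over 10 omissions) and without the low-complexity libraries, at -0.26 (adjusted p = 0.0806). The average of -0.17 ± 0.06 (adjusted p = 0.0172) was lost without the low-complexity libraries, at -0.12 (adjusted p = 0.12), and without NOX4 HS7 replicates 3 and 4, at -0.15 (adjusted p = 0.055). Aqp1 (-0.05 ± 0.09, adjusted p = 0.735) and Aqp11 (0.13 ± 0.07, adjusted p = 0.184) did not pass, though Aqp11 did when SS HS7 replicate 3 was left out (adjusted p 0.0427 to 0.281 over 30 omissions, and 0.015 to 0.377 over 10 at HS7 alone, where that omission also gave a call). At LS, Aqp1 was at 1825, 1968, 2349, 1950 and 1656 CPM in SS and 1601, 1623, 1120, 1618 and 1560 in NOX4. Those groups did not overlap, and the difference of -0.37 ± 0.16 missed the threshold (adjusted p = 0.099). Without NOX4 HS7 replicates 3 and 4, whose Aqp1 of 2633 and 2532 CPM stood far above the 1429 to 1590 of the rest of their group, it passed, at -0.37 (adjusted p = 0.0368).

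**Figure D3:**
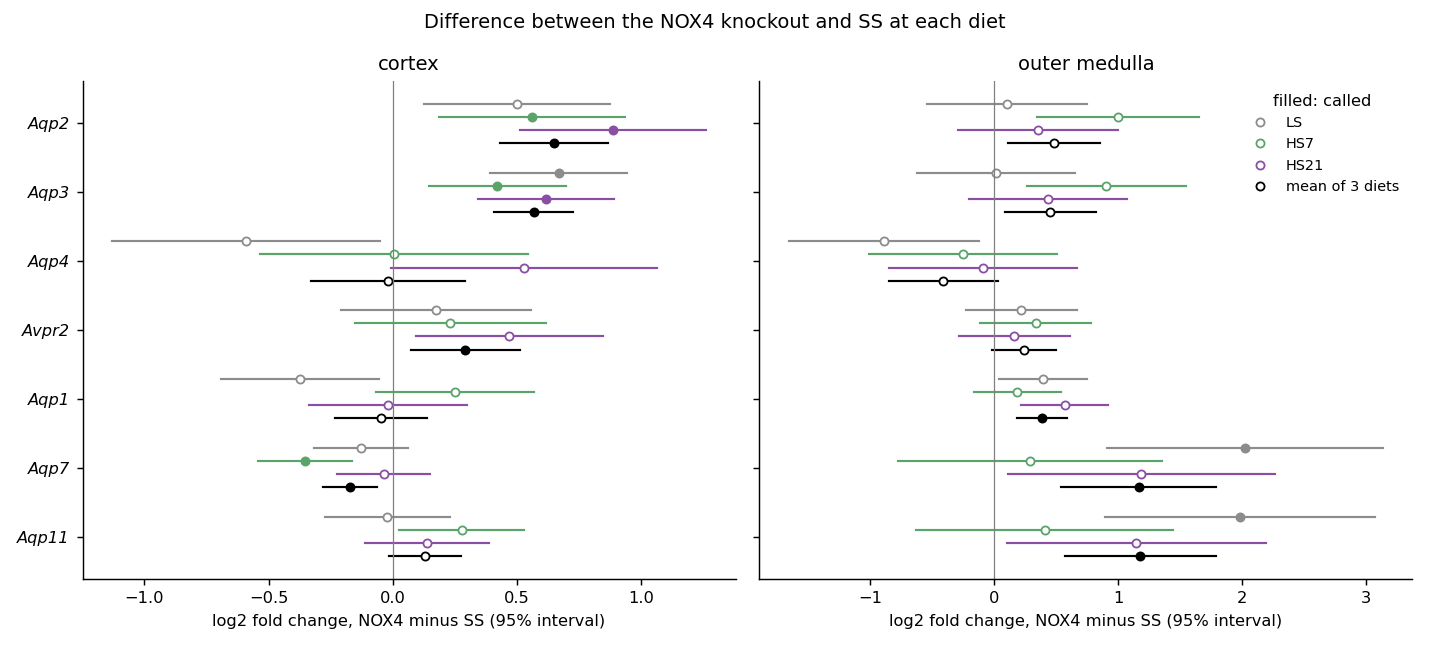
Log2 fold change of each gene, NOX4 minus SS, with 95% intervals, at LS, HS7, HS21 and as the mean of the 3 diets, in the cortex and the outer medulla. Filled symbols passed the test; in the cortex Aqp2 and Aqp3 lie to the right of 0 at every diet, and in the outer medulla Aqp7 and Aqp11 are farthest from 0 at LS.

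Markers of distal nephron cells moved with the cortical difference, in which 31.7% of all genes were called. Of 7 principal cell markers, 4 passed, all higher in NOX4, among them Hsd11b2, which inactivates glucocorticoids (0.63 ± 0.11, adjusted p = 7.63e-05), and Scnn1b, a subunit of the epithelial sodium channel (0.52 ± 0.10, adjusted p = 0.000285). Summed principal cell markers were at 359 to 463 CPM in SS and 559 to 852 in NOX4 at LS, 311 to 595.5 and 449.6 to 854.5 at HS7, and 438 to 680.0 and 637 to 805 at HS21. All 6 intercalated cell markers and all 5 markers of the connecting and distal convoluted tubule rose too, with median log2 fold changes of 0.63 and 0.59 against 0.41 for the principal cell list. No principal cell marker was at 0 in any cortex group. With the principal cell score in the model, the averages of Aqp2 and Aqp3 shrank to 0.40 (adjusted p = 0.0188) and 0.43 (adjusted p = 0.00221), both called, and that of Avpr2 to 0.05 (adjusted p = 0.793). The HS21 differences of Aqp2 and Aqp3 were then 0.59 (adjusted p = 0.169) and 0.44 (adjusted p = 0.191). Segment 3 markers moved the other way in the cortex: 4 of 6 fell and none rose, with a median of -1.92. Their summed level in the cortex was 2564 to 4839 CPM in SS and 833 to 1534 in NOX4 at LS, 987 to 4038 and 935 to 2639 at HS7, and 1074 to 2245 and 853 to 1394 at HS21. With their score in the model, Aqp2 was at 0.55 (adjusted p = 0.028), Aqp3 at 0.42 (adjusted p = 0.0177) and Avpr2 at 0.11 (adjusted p = 0.709). The marker levels themselves differed between strains, so these fits do not measure their share in the strain difference. That share was not tested.

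**Figure D4:**
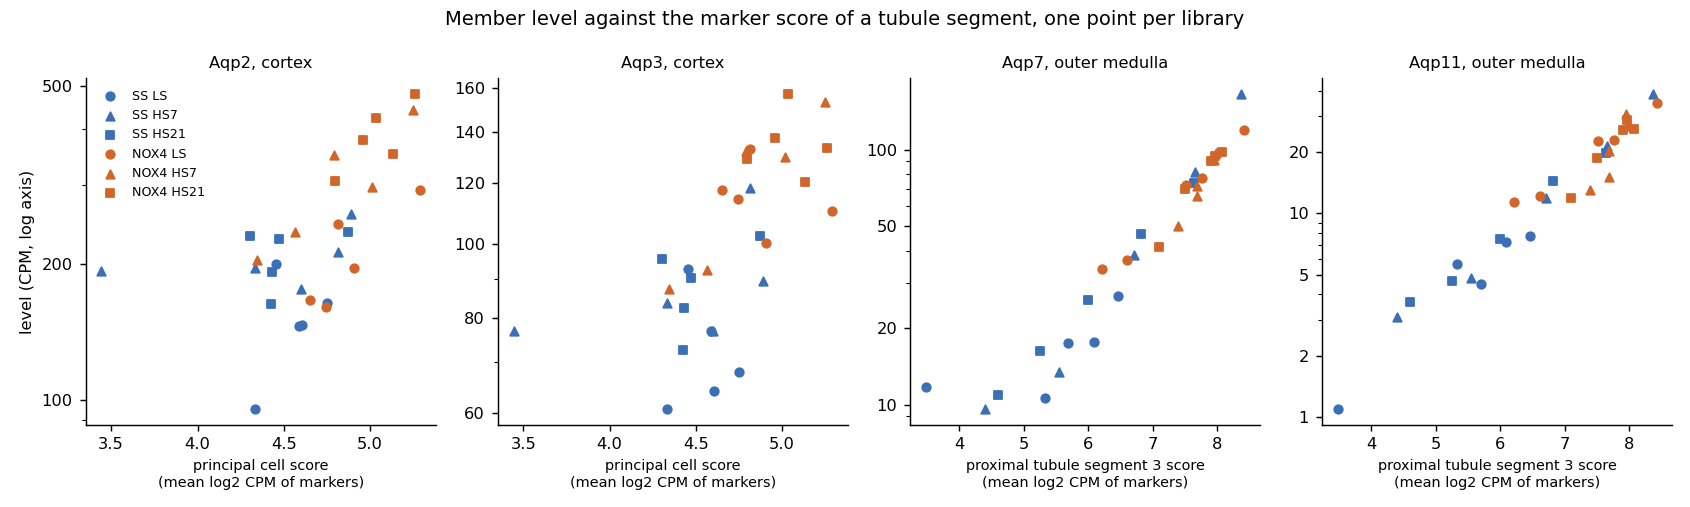
Level of Aqp2 and Aqp3 in cortex libraries against the principal cell marker score, and of Aqp7 and Aqp11 in outer medulla libraries against the segment 3 marker score. Each point is 1 library, coloured by strain and shaped by diet. The level is in CPM on a log axis and the score is a mean log2 CPM. The medullary points lie close to a line (r = 0.96 and 0.98 on log2 CPM) and the cortical ones scatter more (r = 0.616 and 0.651).

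In the outer medulla the strain difference passed for the 3 proximal tubule channels. On average over the 3 diets, 3 of 7 genes were called, all higher in NOX4 (30.4% of all genes were called): Aqp1, Aqp7 and Aqp11. At LS 2 were called (14.8% of all genes). At HS7 none was (9.61% of all genes), with 2 at an unadjusted p under 0.05, 2 called by DESeq2 (Aqp2 and Aqp3) and 2 by limma voom (Aqp1 and Aqp7). At HS21 none was (1.63%), with 3 at an unadjusted p under 0.05, 0 called by DESeq2 and 3 by limma voom (Aqp1, Aqp7 and Aqp11). The percentages are those of edgeR, and the shares of all genes called by DESeq2 and voom are not given here.

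Aqp7 at LS was at 26.7, 17.6, 11.7, 10.7 and 17.4 CPM in SS and 34.1, 77.8, 119.8, 73 and 37 in NOX4. The groups did not overlap, and the difference was 4.06-fold (2.02 ± 0.57, adjusted p = 0.0196). Aqp11 followed the same pattern, at 7.76, 7.2, 1.09, 5.62 and 4.51 in SS and 11.4, 22.9, 34.8, 22.6 and 12.1 in NOX4 (1.98 ± 0.56, adjusted p = 0.0195). NOX4 replicate 3 was the highest library for both genes, and both calls were lost without it (adjusted p 0.0172 to 0.0614 and 0.0176 to 0.0589 over the 10 omissions). Without the low-complexity libraries the differences were 1.89 (adjusted p = 0.0682) and 1.65 (adjusted p = 0.0799). At HS7 the SS values of Aqp7 spread widely, 9.62, 13.5, 165, 81.5 and 38.6, against 72.1, 91.2, 66, 50.3 and 97.5 in NOX4. SS replicate 3 exceeded every other library of the tissue, and the difference was 0.29 ± 0.54 (adjusted p = 0.789). At HS21 SS held 25.7, 10.9, 16.2, 46.6 and 73.9 and NOX4 90.5, 69.9, 97.6, 95 and 41.6, overlapping, with a difference of 1.19 ± 0.55 (adjusted p = 0.257). Averaged over diets, Aqp7 differed by 1.17 ± 0.32 (adjusted p = 0.00716) and Aqp11 by 1.18 ± 0.31 (adjusted p = 0.00568), and both stayed called at each of 30 omissions.

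Aqp1, far more abundant, differed less in the outer medulla. At HS21 it was at 1765, 1484, 1487, 1645 and 2250 CPM in SS and 2515, 2325, 2502, 2843 and 2624 in NOX4. The groups did not overlap, yet 0.57 ± 0.18 did not pass at that diet alone (adjusted p = 0.0981). It passed without SS HS21 replicate 5 (adjusted p 0.0332 to 0.274 over 10 omissions) and without the low-complexity libraries, at 0.57 (adjusted p = 0.0237). The average was 0.38 ± 0.10 (adjusted p = 0.00661), from 1484 to 3132 (median 1945) CPM in SS and 1731 to 3359 (median 2624) in NOX4, and it stayed called at each of 30 omissions.

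Among collecting duct genes, Aqp2 at HS7 was at 1250, 1158, 286, 805 and 988 CPM in SS and 1605, 1221, 2474, 2799 and 877.5 in NOX4. The groups overlapped, and the difference of 1.00 ± 0.33 just missed the threshold (adjusted p = 0.054). It passed without NOX4 replicate 2 or 5 (adjusted p 0.0216 to 0.203 over 10 omissions), and was 0.74 (adjusted p = 0.197) without the low-complexity libraries, which include the low SS replicate 3. Averaged over diets, Aqp2 (0.48 ± 0.19, adjusted p = 0.0535), Aqp3 (0.45 ± 0.19, 0.0671) and Avpr2 (0.24 ± 0.13, 0.17) did not pass. Aqp2 passed when any of 10 libraries was left out (SS LS replicate 4, SS HS7 replicates 1, 2 and 3, SS HS21 replicates 2 and 5, NOX4 LS replicate 3, NOX4 HS7 replicates 2 and 5, NOX4 HS21 replicate 3; adjusted p 0.0274 to 0.0977 over 30 omissions), and Aqp3 when any of 5 was (SS LS replicate 4, NOX4 LS replicate 3, NOX4 HS7 replicates 2 and 5, NOX4 HS21 replicate 3; 0.0214 to 0.122). The fitted difference of Aqp4 was below 0, at -0.41 ± 0.22 (adjusted p = 0.168), and passed without SS HS7 replicate 3 (adjusted p 0.0233 to 0.268). At LS it was at 126.5, 154, 127.5, 208 and 179.7 in SS and 96.9, 92.8, 44.4, 97.7 and 98.9 in NOX4, groups that did not overlap, with a difference of -0.89 ± 0.39 that did not pass (adjusted p = 0.12).

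Segment 3 markers rose with Aqp7 and Aqp11 in the outer medulla. All 6 of them were higher in NOX4, with a median log2 fold change of 1.23, where 30.4% of all genes were called. Their summed level was 387 to 1988 CPM in SS and 1680 to 7565 in NOX4 at LS, 533 to 6775 and 2712 to 5164 at HS7, and 474 to 3568 and 2286 to 5121 at HS21, and none of the 6 was at 0 in any group. Of the markers of proximal segments 1 and 2, 2 of 6 were called, both higher in NOX4. That is close to the 30.4% called over all genes. The median over these markers was 1.32. Their summed level was 177 to 1200 CPM in SS and 1153 to 4797 in NOX4 at LS, 387 to 9427 and 1410.0 to 5448 at HS7, and 328 to 2626 and 1349 to 4274 at HS21, with no marker at 0 in a whole group. Their score correlated with Aqp7 at r = 0.834 and with Aqp11 at 0.891 (30 libraries). With the segment 3 score in the model, the averages were 0.07 (adjusted p = 0.848) for Aqp7, 0.03 (adjusted p = 0.917) for Aqp11 and 0.08 (adjusted p = 0.675) for Aqp1. Under the same model Aqp2 and Aqp3 were 0.81 (adjusted p = 0.0402) and 0.84 (adjusted p = 0.0284). Fat cells also express Aqp7. Of 3 adipocyte markers tested in the outer medulla, Cidec was higher in NOX4 (1.23 ± 0.37). Plin1 was fitted as higher too (2.57 ± 0.49). At no more than 0.32 CPM in SS libraries, it passed the filter on low counts through NOX4 libraries alone, so its difference carries no weight. Adipoq of the same list had similar medians, 16.7 CPM in SS and 17.35 in NOX4 (15 libraries each). In the cortex Cidec lay the other way, at a median of 32.35 CPM in SS and 11.17 in NOX4. In the outer medulla the adipocyte score, of 2 genes, correlated with Aqp7 at r = 0.891 and with Aqp11 at 0.912 (30 libraries). The summed list was at 18.2 to 40.9 CPM in SS and 47.3 to 114 in NOX4 at LS, 27.5 to 171 and 77.05 to 105.6 at HS7, and 31.55 to 73.4 and 60.1 to 103.4 at HS21. Plin1, a coat protein of the fat droplet, was at 0 in 7 of 15 SS outer medulla libraries. It reached 1.09 CPM at most in an outer medulla library, and no adipocyte marker of the score was at 0 in a whole group. Of 6 principal cell markers tested here 0 were called (median log2 fold change -0.03), and Kcne1 of that list was at 0 in all SS LS libraries. With the principal cell score in the model, 6 of 7 genes were called in the outer medulla, Aqp2 at 0.54 (adjusted p = 3.37e-05), Aqp3 at 0.50 (adjusted p = 0.000642) and Avpr2 at 0.28 (adjusted p = 0.00309) being added to the 3. The share of all genes called under that model is not given here, so the count is not read as particular to these genes. The segment 3 score followed Aqp7 and Aqp11 closely (r = 0.96 and 0.98 over the 30 libraries), so the fits with it cannot measure the part of segment 3. The part of segment 3, of segments 1 and 2 or of fat cells in the Aqp7 and Aqp11 difference was not tested.

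**Figure D5:**
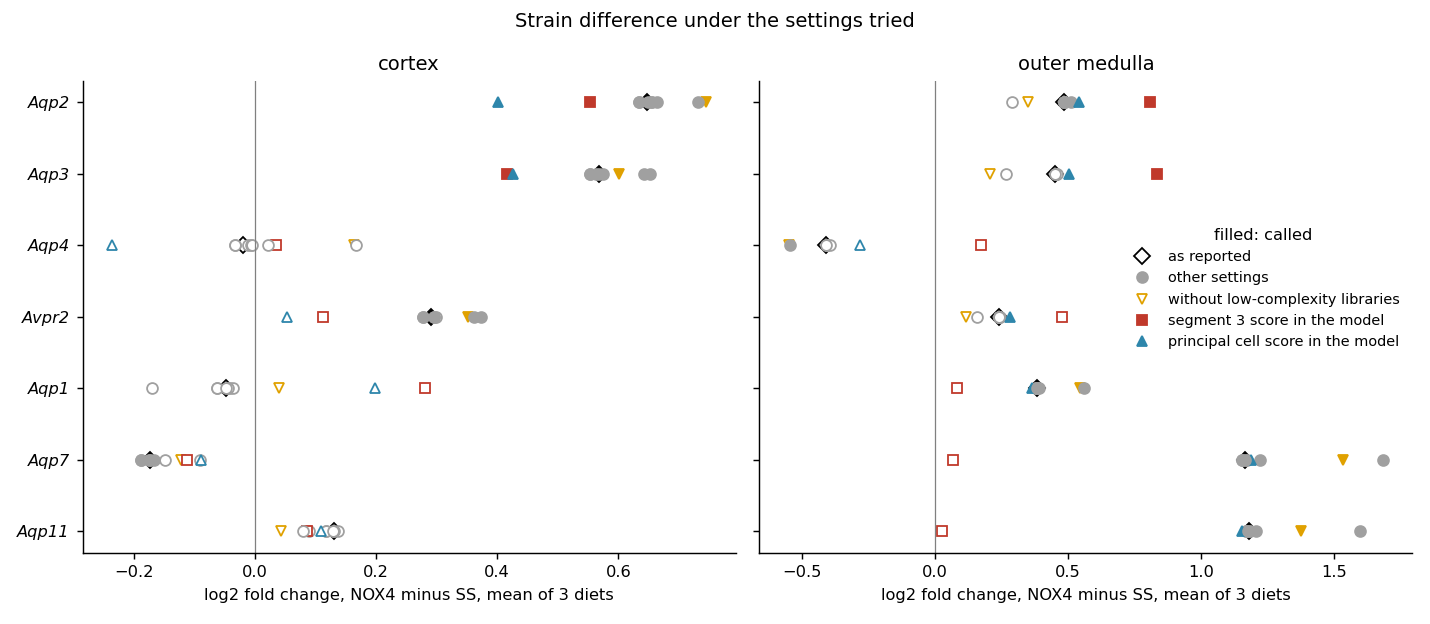
Log2 fold change, NOX4 minus SS, as the mean of the 3 diets, under each setting tried, for the cortex and the outer medulla. Filled symbols passed the test; in the cortex Aqp2 and Aqp3 are filled under every setting, and in the outer medulla Aqp1, Aqp7 and Aqp11 are open only with the segment 3 score in the model.

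The strain effect differed between the tissues for 3 of 7 genes, where 11% of all genes tested differed. Subtracting the cortical from the medullary effect gave 1.35 ± 0.33 for Aqp7 (adjusted p = 0.00427), 1.06 ± 0.32 for Aqp11 (adjusted p = 0.0221) and 0.45 ± 0.15 for Aqp1 (adjusted p = 0.0334). For Aqp2 (-0.14 ± 0.23, 95% interval -0.58 to 0.31), Aqp3 (-0.09 ± 0.21, -0.49 to 0.32) and Avpr2 (-0.02 ± 0.18, -0.37 to 0.32), and for Aqp4 (-0.36 ± 0.28, -0.92 to 0.19), no difference between tissues was detected. All 6 segment 3 markers differed the same way as Aqp7. The Aqp1 call was lost when replicate number 1 or 2 was left out of all 12 groups (adjusted p 0.0273 to 0.212 over the 5 omissions). That of Aqp11 was lost without number 1, 2 or 4 (0.0211 to 0.141).

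No gene of the 7 was called by edgeR for the high-salt diet in either strain or tissue. In SS cortex 0 of 7 passed at HS7 (2.25% of all genes) and 0 at HS21 (16.5%), with 2 and 4 at an unadjusted p under 0.05. DESeq2 and limma voom each called 0 at HS7 and 1 at HS21, DESeq2 Aqp1, at -0.44 (adjusted p = 0.0339), and voom Aqp2, at 0.60 (adjusted p = 0.0359). Leaving out SS LS replicate 5 gave a call for Aqp1 and leaving out SS LS replicate 4 one for Aqp2 (adjusted p 0.0434 to 0.161 and 0.0397 to 0.215 over 10 omissions each). In NOX4 cortex no gene of the table passed at either time (0% of all genes), and 2 and 1 of the 7 had an unadjusted p under 0.05. Both other tools called 0 of the 7 at HS7 and 1, Aqp2, at HS21. In SS outer medulla 0 of 7 passed at HS7 (2.37%) and HS21 (9.86%), with 2 and 0 at an unadjusted p under 0.05. DESeq2 called 2 at HS7, Aqp7 and Aqp11, and voom none, and neither called any at HS21. In NOX4 outer medulla 0 of 7 and 0% of all genes passed at both times, none of the 7 had an unadjusted p under 0.05, and neither other tool called one. These percentages too are those of edgeR, without the shares of the other tools.

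Among these uncalled salt differences, those of Aqp2 and Aqp4 in NOX4 cortex at HS21 had groups that did not overlap. The share of all genes with such groups is not given here, so the lack of overlap only describes these libraries. Aqp2 was at 197, 246, 293, 166 and 161 CPM at LS and 378.5, 307, 352, 479 and 423.5 at HS21. Every HS21 library exceeded every LS library (0.87 ± 0.19, unadjusted p = 9.00e-05), while the adjusted p was 0.269 in edgeR, 0.0251 in DESeq2 and 0.000441 in voom. In SS cortex Aqp2 differed by 0.48 ± 0.19 (adjusted p = 0.0789). The difference between these salt responses was 0.38 ± 0.27 (adjusted p = 0.498), which did not pass. Aqp4 had the largest such difference in the cortex, 1.12 ± 0.39 (adjusted p = 0.141), from -0.57 ± 0.27 in SS and 0.54 ± 0.27 in NOX4. In SS outer medulla Aqp7 was 3.66-fold higher at HS7 than at LS without passing (adjusted p = 0.064). Its 5 HS7 libraries spread from 9.62 to 165 CPM around the LS range of 10.7 to 26.7, and the difference passed without SS LS replicate 1 or SS HS7 replicate 1 or 2 (adjusted p 0.0196 to 0.3 over 10 omissions). Aqp11, at 1.60 ± 0.55 (adjusted p = 0.0898), passed without SS HS7 replicate 1 or 2 (0.0312 to 0.375). Strain and salt interacted for 0 of 7 genes in the cortex at HS7 (0.0132% of all genes) and HS21 (1.08%), with 1 at an unadjusted p under 0.05 each, and for 0 of 7 in the outer medulla at HS7 (0%) and HS21 (0.0253%), with 2 and 0. DESeq2 and voom called none in these 4 comparisons.

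Other genes of the vasopressin pathway, from a list of 30 of which 29 were tested in each tissue, moved in both directions. The list shares Gata3 with the principal cell markers. In the cortex 5 were higher and 6 lower in NOX4 on average over diets (median -0.00159, against 0.00186 over all genes, of which 31.7% were called). The fall of Prkar2b, a regulatory subunit of protein kinase A, was the largest (-1.03 ± 0.14, adjusted p = 4.24e-06), from a median of 10.5 CPM in SS to 4.77 in NOX4. Adcy6, the adenylyl cyclase that follows the V2 receptor in principal cells (0.30 ± 0.05, adjusted p = 2.43e-05), Prkaca, the catalytic subunit (0.24 ± 0.05), and Vamp2, a vesicle protein of Aqp2 delivery (0.26 ± 0.05), were higher. Medullary counts were 2 higher and 3 lower (median -0.0445, against -0.0164 over all genes, of which 30.4% were called), with Nedd4, a ubiquitin ligase, at -0.37 ± 0.07 and Prkaca at 0.28 ± 0.05. Under high salt, in SS cortex, Pde1a, a phosphodiesterase that breaks down cyclic nucleotides, fell at HS7 (-0.73 ± 0.18, adjusted p = 0.0283) and HS21 (-1.09 ± 0.18, adjusted p = 0.000205). It was the only 1 of 29 list genes called at HS7 there, where 2.25% of all genes were called. At HS21 2 of 29 rose, the transcription factor Elf3 (0.74 ± 0.16) and Prkaca (0.30 ± 0.08). Another 3 fell, among them Rab11a, a GTPase of recycling endosomes (-0.26 ± 0.05). Over all genes 16.5% were called at HS21, close to the share of the list. In NOX4 cortex no list gene passed, as no gene of the table did. The salt response of Pde1a at HS21 differed between strains by 1.07 ± 0.25 (adjusted p = 0.0325). In SS outer medulla 1 list gene rose at HS7 (2.37% of all genes were called), Oxtr, the oxytocin receptor (4.52 ± 1.01). At HS21 (9.86%) Oxtr rose and Nedd4l fell. Oxtr lay near the floor, at 0 in 5 of 15 SS outer medulla libraries and at no more than 2.90 CPM. A gene this low can pass the filter on low counts through the libraries where it is high. SS LS replicates 2, 3 and 5 of this tissue were also low-complexity libraries, so the rise of Oxtr carries no weight. Between tissues 13 of 29 were higher and 8 lower in the outer medulla, a share close to the 71.6% of all genes called, and the highest differences, named after their values were seen, were those of Pde1a (2.74 ± 0.12) and the transcription factors Elf5 (2.15 ± 0.25) and Grhl2 (1.80 ± 0.09). Of the other vasopressin receptors, Avpr1b had 0 counts in all 60 libraries and Avpr1a lay at medians of 4.84 to 7.55 CPM.

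Aquaporins outside the 7 were led by Aqp6, an intercalated cell channel of intracellular vesicles. Its cortex CPM was 65.05 to 131.5 (median 94.4) in SS and 104.6 to 167 (median 138) in NOX4, higher by 0.50 ± 0.08 (adjusted p = 3.58e-05). Aqp5 (1.03 ± 0.27, adjusted p = 0.00452) was higher too, at no more than 3.61 CPM in any cortex library. Both of the 2 listed aquaporins tested in the cortex were called (31.7% of all genes), and neither of 2 was in the outer medulla (30.4%). Counts of 2 genes are too few to set against these shares. The strain effect in the outer medulla minus that in the cortex was -0.57 ± 0.15 for Aqp6 (adjusted p = 0.008) and -1.88 ± 0.48 for Aqp5 (adjusted p = 0.00659). In the outer medulla itself the fitted effects were -0.10 ± 0.12 and -0.87 ± 0.40, below 0 and not called (adjusted p = 0.579 and 0.0985). Mip, Aqp8, Aqp9 and Aqp12a had medians of at most 0.33 CPM in every strain and tissue.

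Across the 30 libraries of a tissue Aqp2, Aqp3 and Avpr2 varied together, and Aqp4 followed them less closely in the cortex. These correlations of log2 CPM describe libraries that share depth, strain and cell makeup. Aqp2 and Aqp3 had r = 0.835 in the cortex and 0.945 in the outer medulla, and 0.69 and 0.929 after group means were removed. Aqp2 and Avpr2 had r = 0.674 and 0.799. Aqp4 had r = 0.351 with Aqp2 and 0.164 with Aqp3 in the cortex, against 0.666 and 0.643 in the outer medulla. Aqp7 and Aqp11 had r = 0.953 in the outer medulla but -0.218 in the cortex, where both are well expressed. Over all genes with enough counts, those most like Aqp2 in the cortex were Aqp3, Scnn1b (r = 0.83) and Adipoq (0.78), and in the outer medulla Aqp3, Fxyd4 (0.88), a modulator of the sodium pump, and Acrbp (0.87). Aqp3 in the cortex was most like Uqcrc1 (0.89) and Cox4i1 (0.87), subunits of the respiratory chain, and Arpc1a (0.87), and in the outer medulla Aqp2 and Grem1 (0.87). Avpr2 was most like Ramp3 (0.74), Efhd1 (0.73) and Inpp5j (0.72) in the cortex and Klhdc8a, Kifc3 and Fabp3 (0.88 each) in the outer medulla. Aqp4 tracked Tmprss2 (0.90) and Mboat1 (0.89) in the outer medulla and, more loosely, Rptor (0.69), Ttc19 (0.68) and Cyfip2 (0.64) in the cortex. In the outer medulla Aqp7 was most like RGD1309534, Tp53i3 and Dao (0.99 each), Aqp11 like Bhmt2, Mep1a and Dpys (0.99, 0.99 and 0.98) and Aqp1 like Galm (0.92), Dlst (0.91) and Pank1 (0.90). In the cortex the closest were Cldn2 (0.81), Pole3 (0.80) and Pzp (0.80) for Aqp7, Nipsnap1 (0.82), Paox and Dnajc30 (0.81 each) for Aqp11 and Fah (0.93), Acy3 (0.92) and Aldh6a1 (0.91) for Aqp1.

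The authors' deposited table gave adjusted p-values that were smaller than those of edgeR for some of the 7 genes and larger for others. For Aqp2 at HS21 in the cortex the authors' deposited table lists 0.88 (adjusted p = 7.14e-10) between strains and 0.87 (adjusted p = 0.000169) between diets in NOX4, the second of which edgeR did not call. The authors' deposited table also lists Aqp4 in the outer medulla at LS at -0.89 (adjusted p = 0.000824) and Aqp1 there at HS21 at 0.59 (adjusted p = 8.89e-05), neither of which passed here. For HS21 against LS in SS cortex it lists Aqp1 at -0.44 (adjusted p = 0.000576), Aqp2 at 0.48 (adjusted p = 0.0226) and Aqp11 at -0.22 (adjusted p = 0.0463). In SS outer medulla it lists Aqp4 at -0.68 (adjusted p = 0.045) for the same diets. None of these salt differences was called by edgeR. In the other direction, at HS7 in the cortex the authors' deposited table lists Aqp3 at 0.41 (adjusted p = 0.113) and Aqp7 at -0.36 (adjusted p = 0.0561), both of which edgeR called.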

How the data were processed

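Gene counts of 60 libraries of poly(A) RNA were analysed. Per the submitters' processing notes the authors used HISAT2 2.0.5, StringTie 1.3.3b and featureCounts 1.5.0-p3; the genome build and the strand setting are not given in the sources used here. The deposited table holds raw counts and FPKM of each library, and the authors' deposited comparisons give log2 fold changes and p-values. From the counts, edgeR 4.0.16 in R 4.3.3 (TMM scaling, filterByExpr by group, quasi-likelihood F test with legacy deviances) was fitted over the 30 libraries of a tissue and over all 60 between tissues, on 15179 genes in the cortex, 15799 in the outer medulla and 16326 over both. P-values were adjusted by Benjamini-Hochberg over all genes tested, and called under 0.05. CPM levels are TMM-scaled within a tissue. Log2 CPM used a prior count of 2. A marker score is the mean log2 CPM of list genes with a mean of at least 1 CPM. Low-complexity libraries had at least 10 genes without a count, after thinning to 10 M counts, among genes whose median in the tissue was 2 to 5 CPM. Alternatives were DESeq2 1.42.0, its size factors in edgeR, limma 3.58.1 voom with quality weights, adjusted deviances (added after seeing the data), no filter, a replicate block, marker scores as covariates, the compared groups alone and omission of libraries. The fits were tested on simulated data. The 7 genes were tested and counted in every comparison and those the comparison turns on are described, with up to 4 called members of each pathway list by smallest p, and the 3 genes most correlated with each, apart from an item that is not reported here. The genes and lists were chosen with earlier results of these data known.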

Additional observations from a re-analysis of the deposited data

Results flagged for a closer look

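In 6 of 84 groups of 5 libraries, 1 library stood apart from the others by Dixon's test (critical value 0.71), which chance alone flags in about 1 of 20 groups. Cortex library NOX4 LS replicate 3 accounted for 3 of them, with the lowest Aqp1 (1120 CPM), Aqp7 (86.1 CPM) and Aqp11 (37.7 CPM) of its group, all proximal tubule channels. Outer medulla library NOX4 LS replicate 3 accounted for 2, with the lowest Aqp4 (44.4 CPM) and Avpr2 (47.25 CPM), both collecting duct genes. Outer medulla library SS LS replicate 4 had the highest Aqp3 of its group, at 501.6 CPM against 185 to 257 in the other 4.

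The strain effect differed between tissues, by a test of that difference, for Aqp7 (1.35 on the log2 scale, edgeR adjusted p = 0.00427), Aqp11 (1.06, adjusted p = 0.0221) and Aqp1 (0.45, adjusted p = 0.0334), each higher in the outer medulla than in the cortex.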

How the results depend on the processing

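Of 528 values of called-gene counts under the alternatives, 456 stayed within 1.5 times the count reported and 72 moved, and no called log2 fold change changed sign. The following are numbers of the 7 genes called, and the share of all genes called under each alternative is not given here. NOX4 against SS in the cortex, with 1 at LS, gave 2 with DESeq2, 0 with the segment 3 score, 3 without NOX4 HS7 replicates 3 and 4, 2 with the compared groups alone and 1 to 2 when a library was left out. At HS7 the 3 became 1 without the low-complexity libraries, 1 with the replicate block, 1 with the principal cell score, 0 with the groups alone and 0 to 4 when a library was left out. At HS21 the 2 became 4 with voom, 0 with either score and 0 to 2 when a library was left out. The 4 of the average became 2 with either score. In SS cortex, 0 at HS7 became 2 with the principal cell score, and 0 at HS21 became 1 with DESeq2, 1 with voom, 2 with the principal cell score, 1 without NOX4 HS7 replicates 3 and 4, 1 with the groups alone and 0 to 1 when a library was left out. NOX4 cortex at HS21, with 0, gave 1 with DESeq2 and 1 with voom. In the outer medulla, the strain count of 2 at LS became 0 without the low-complexity libraries, 0 with the segment 3 score, 4 with the principal cell score and 0 to 2 when a library was left out. The 0 at HS7 became 1 with DESeq2's size factors, 2 with DESeq2, 2 with voom, 1 with the replicate block, 2 with the segment 3 score, 1 with the principal cell score, 1 with adjusted deviances and 0 to 2 when a library was left out. The 0 at HS21 became 1 without the low-complexity libraries, 3 with voom, 1 with the principal cell score, 1 with the groups alone and 0 to 1 when a library was left out. The 3 of the average became 5 with DESeq2, 6 with the principal cell score and 3 to 5 when a library was left out. SS outer medulla at HS7, with 0, gave 2 with DESeq2 and 0 to 2 when a library was left out, and at HS21, with 0, gave 1 with either score. The strain by tissue count of 3 became 1 to 3 when a replicate number was left out. The cause of these moves was not tested.

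Replicate numbers were not taken to pair the libraries: deviations of same-numbered cortex and outer medulla libraries correlated at -0.179 to 0.204, over 0.1 in 4 of 30 pairs, and 8 of 30 libraries correlated best with their own number. Between groups of 1 tissue they correlated at -0.133 to 0.301 in the cortex (over 0.1 in 9 of 75 pairs) and -0.38 to 0.436 in the outer medulla (19 of 75). The replicate block gave no call for Aqp2 and Aqp3 in the cortex at HS7, at 0.56 (adjusted p = 0.051) and 0.41 (adjusted p = 0.0601), for the cortical average of Avpr2, at 0.30 (adjusted p = 0.0564), for Aqp1 between tissues in NOX4 at LS, at 0.51 (adjusted p = 0.0529), or for the strain by tissue effect of Aqp1, at 0.47 (adjusted p = 0.0683). It gave one for Aqp2 in the outer medulla at HS7, at 1.14 (adjusted p = 0.0341), and on average, at 0.51 (adjusted p = 0.038). The lowest counts in a library were 15 for Aqp11 and 49 for Aqp4.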

Other observations

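Of genes of the response to high osmolality, which builds up osmolytes in medullary cells, 1 of 5 tested in the cortex and 2 of 6 tested in the outer medulla were called between strains on average over diets, all lower in NOX4. Over all genes 31.7% and 30.4% were called, which is above the share of the list in the cortex and close to it in the outer medulla. The list held 7 genes, of which 6 were matched. Nfat5, the transcription factor that drives this response, was at a median of 159 CPM in SS and 112.5 in NOX4 cortex (-0.53 ± 0.07, edgeR adjusted p = 6.09e-06). Its outer medulla medians were 618 and 427 (-0.65 ± 0.13, adjusted p = 0.000755). It was the 1 list gene called in the cortex. Akr1b1, the aldose reductase that makes sorbitol, was called as well in the outer medulla (-0.44 ± 0.14, adjusted p = 0.0227). Between tissues 4 of the 6 were higher and 1 lower in the outer medulla, where 71.6% of all genes were called.

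Under high salt at HS21, Nfat5 (-0.84 ± 0.23, adjusted p = 0.0213) and the betaine transporter Slc6a12 (-1.06 ± 0.33, adjusted p = 0.0404) fell in SS outer medulla, and Akr1b1 rose in SS cortex (0.60 ± 0.16, adjusted p = 0.00941). No gene of the list was called for salt in NOX4, where no gene of the table was, and the list's strain by salt terms gave 0 calls. Among the other marker lists, 4 of 6 proximal segment 1 and 2 markers were higher in NOX4 cortex, where 31.7% of all genes were called. There also 1 of 5 thick limb markers was higher and 2 lower, 2 of 4 descending thin limb markers were lower, 1 of 4 endothelial markers was higher and 1 lower, and 1 of 3 red cell markers was higher. The red cell list shares Slc4a1 with the intercalated cell list, whose markers were all higher in NOX4 cortex. In the outer medulla, where 30.4% of all genes were called, the thick limb, descending thin limb, endothelial and red cell lists had no called gene.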
